A study of Mus musculus with 6 samples.

Results

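Genes that decide whether a cell dies or survives, and targets of the tumour suppressor p53, were examined in pineal glands of newborn mice with and without Neurod1, a basic helix-loop-helix factor that drives neurons and endocrine cells to differentiate. The set named 31 genes: pore formers, survival proteins and BH3-only proteins of the Bcl2 family, initiator caspases with their scaffold and receptors, and p53 targets. A gene was included where the platform annotation assigned a probe set to it alone, which held for 30 of the 31 genes among 18193 genes on the array, with 72 probe sets in all. Bax was not analysed here. Each gene was read from its probe set of highest mean over the 6 arrays. For 24 genes this probe set passed a filter on dim signals and was tested, while Bak1, Pmaip1, Bid, Bik, Fas and Tnfrsf10b lay under the filter and are given as values only.

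The glands came from 129 mice at postnatal day 0, either wildtype or homozygous for a Neurod1 knockout, kept in a light-dark cycle. Each genotype had 3 pools of 3 glands taken by day, each a separate biological sampling, run on 1 Affymetrix array each after a single round of RNA amplification, and pools of the same number in both genotypes carry the same date in the labels. Which part of Neurod1 was deleted is not stated in the labels. Values are deposited signals, a linear intensity, and differences are knockout minus wildtype of log2(signal + 38.6), an offset that shrinks the differences of dim genes. Standard errors (SE), p-values and 95% intervals come from limma, with Benjamini-Hochberg adjustment over all 12797 tested genes and a threshold of 0.05.

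Cells that die by the mitochondrial route do so when Bax or Bak1 open the outer mitochondrial membrane, which survival proteins such as Bcl2, Bcl-x and Mcl1 prevent. BH3-only proteins bind the survival proteins and release that block. Cytochrome c then leaves the mitochondria and assembles Apaf1 and caspase 9 into the apoptosome, while death receptors such as Fas start a separate route through caspase 8. The p53 protein is known to raise transcription of Bbc3, Pmaip1, Bax, Fas, Cdkn1a and Mdm2 after DNA damage, and the Mdm2 protein marks p53 for breakdown. Neurons of several tissues are known to be lost in mice without Neurod1, and the genotype comparison here addresses which transcripts of this pathway differ in the gland at birth.

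The promoter windows of 4 p53-pathway genes are shown because p53 and Neurod1 each bind a known DNA element, the p53 half-site and the E-box CANNTG. Each window is the 250 bases before a transcript start in RefSeq on GRCm38.p6, read 5′ to 3′ along the gene. RefSeq windows matched 25 of the 31 genes, with 35 windows, since some genes have several starts. In the first 3, capitals mark matches to the p53 half-site consensus. In Sesn2, capitals mark CAGATG, a form of the E-box, on either strand. Phlda3 was the tested gene whose groups did not overlap, Mdm2 had the smallest p, and Cdkn1a and Sesn2 had the most matches to their motif in 1 window.
Phlda3 (chr1:135765835-135766084, plus strand): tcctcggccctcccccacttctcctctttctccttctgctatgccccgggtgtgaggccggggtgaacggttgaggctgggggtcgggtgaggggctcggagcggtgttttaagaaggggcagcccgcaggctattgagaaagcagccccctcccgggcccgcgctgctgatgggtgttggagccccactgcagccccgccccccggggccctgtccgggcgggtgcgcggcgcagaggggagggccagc
Mdm2 (chr10:117710759-117711008, minus strand): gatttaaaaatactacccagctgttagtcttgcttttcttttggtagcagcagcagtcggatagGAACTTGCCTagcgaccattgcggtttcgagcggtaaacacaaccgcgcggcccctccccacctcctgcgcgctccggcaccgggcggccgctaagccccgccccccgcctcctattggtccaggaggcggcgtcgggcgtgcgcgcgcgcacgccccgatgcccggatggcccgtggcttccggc
Cdkn1a (chr17:29090729-29090978, plus strand): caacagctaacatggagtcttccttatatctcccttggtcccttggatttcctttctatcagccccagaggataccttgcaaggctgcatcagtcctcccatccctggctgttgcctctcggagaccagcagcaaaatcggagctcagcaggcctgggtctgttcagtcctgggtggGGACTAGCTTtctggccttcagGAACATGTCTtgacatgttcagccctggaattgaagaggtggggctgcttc
Sesn2 (chr4:132510457-132510706, minus strand): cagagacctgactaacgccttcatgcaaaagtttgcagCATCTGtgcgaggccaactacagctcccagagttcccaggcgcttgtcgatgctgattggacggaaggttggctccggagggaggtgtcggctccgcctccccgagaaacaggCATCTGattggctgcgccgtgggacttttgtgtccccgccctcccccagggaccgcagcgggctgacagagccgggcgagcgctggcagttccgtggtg

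Both strands were searched. The p53 half-site consensus was in 6 of the 35 windows (17.1%), those of Aen, Bax, Bmf, Ccng1, Cdkn1a and Mdm2, and in 7.13% of all 32851 promoter windows of this length. The Cdkn1a window shown held 2 matches, the Mdm2 window 1, and the Phlda3 window 0. An E-box CANNTG, which includes every CAGATG, was in 21 of the 35 windows and in 66.2% of all. CAGATG itself was in 2 of the 35, windows of Bcl2l1 and Sesn2, and in 14.4% of all. These matches describe letters in a short window and not binding.

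Neurod1 itself fell in the knockout pools, which checks the labels. Its signals were 9027, 9301 and 7519 in wildtype pools 1, 2 and 3, and 390.2, 524 and 123 in knockout pools 1, 2 and 3. Every knockout pool was far below every wildtype pool, and the log2 difference was −4.67 (SE 0.45, limma adjusted p = 0.0362). The call ended with an offset of 1 or quantile normalization (adjusted p = 0.0721 and 0.0504), and without any 1 of the wildtype pools or without knockout pool 1, where the adjusted p lay between 0.0985 and 0.621. Pinealocyte signal was present in all pools: the summed signal of 13 genes that include Tph1, Aanat and Crx was 48486 to 68247 in wildtype and 42919 to 51085 in knockout. Rcvrn, 1 of the 13, lay under the filter with signals of 7.2 to 24.5. Of 12 tested members 9 were lower in knockout, with a median difference of −0.44. Without overlap 3 were lower and 1, Slc18a1, was higher, beside 4.33% and 5.77% of all tested genes. Pools differed in markers of other tissues. The summed signal of 17 macrophage and leukocyte markers was 11428 to 12298 in wildtype and 13973 to 19930.3 in knockout. Of 16 of these markers, 15 were higher in knockout. The 16 take in Aif1 (difference 0.60) and leave out Itgam (−0.11), which both lay under the filter. Pericyte and smooth muscle markers summed to 12922 to 16066 and 16173 to 25363 (9 of 9 higher), meningeal fibroblast markers to 85375 to 92623 and 108189 to 131232 (9 of 10 higher), and endothelial markers to 10950.2 to 14362 and 10549.6 to 17689 (9 of 10 higher). Over all tested genes 53.2% were higher. The brightest fibroblast markers were Col1a1, Col1a2 and Col3a1, and the median difference of the fibroblast list was −0.029 within pool number 1. Proliferating cell markers summed to 18415 to 22794 and 15036 to 17901 (2 of 9 higher), and red cell markers to 905 to 1308 and 575 to 1166. Choroid plexus markers, which share Otx2 with the pinealocyte list, ranged from 13085 to 103042 over the 6 pools, male germ cell markers reached 29274 in knockout pool 2 against 4159 or less elsewhere, and dissection stress genes ranged from 18083 to 41128. In knockout pool 1 the median of 48 ribosomal protein genes lay 1.11 above the mean of the 6 pools on the log2 scale, while it lay below that mean in the other 5 pools. No defining marker was listed at 0. The part of these tissues and pools in the results was not tested, and in whole glands fewer cells of a type and less RNA per cell cannot be told apart.

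None of the 24 tested death and p53 genes passed the threshold in the knockout. The lowest adjusted p was 0.998 in limma, and 0 of 24 had an unadjusted p under 0.05. Over all tested genes 0.00781% were called, Neurod1 alone, and 3.34% had an unadjusted p under 0.05. The groups did not overlap for 1 of the 24 genes, Phlda3, against 10.1% of all genes tested. The 24 genes had 17 higher and 7 lower values in knockout, beside 53.2% higher over all genes, but this split depends on how arrays are scaled. It was 14 higher with quantile normalization and 10 higher with arrays moved to a common median, which shifts the median of all genes from 0.028 to −0.11. Among the 17 were Hrk and Sesn2, whose wildtype mean lay under the filter level, so that they were tested only through their knockout signals. The median difference of the 24 genes was 0.084. Relative to all genes it was 0.056 as deposited and 0.13 with quantile normalization. With a common median it stayed at 0.056 by construction, since all genes shift alike.

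The intervals show which sizes of difference the data leave possible. For 12 of the 24 genes (50.0%) the 95% interval lay within a log2 difference of 1 in either direction, that is, it held neither a doubling nor a halving on the offset scale. Among all tested genes this share was 41.1%. The difference was smaller than its own SE for 18 of the 24 genes (75.0%), and for 67.7% of all genes. The median size of a difference, regardless of sign, was 0.18 for the 24 genes and 0.24 for all genes.

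**Figure D1:**
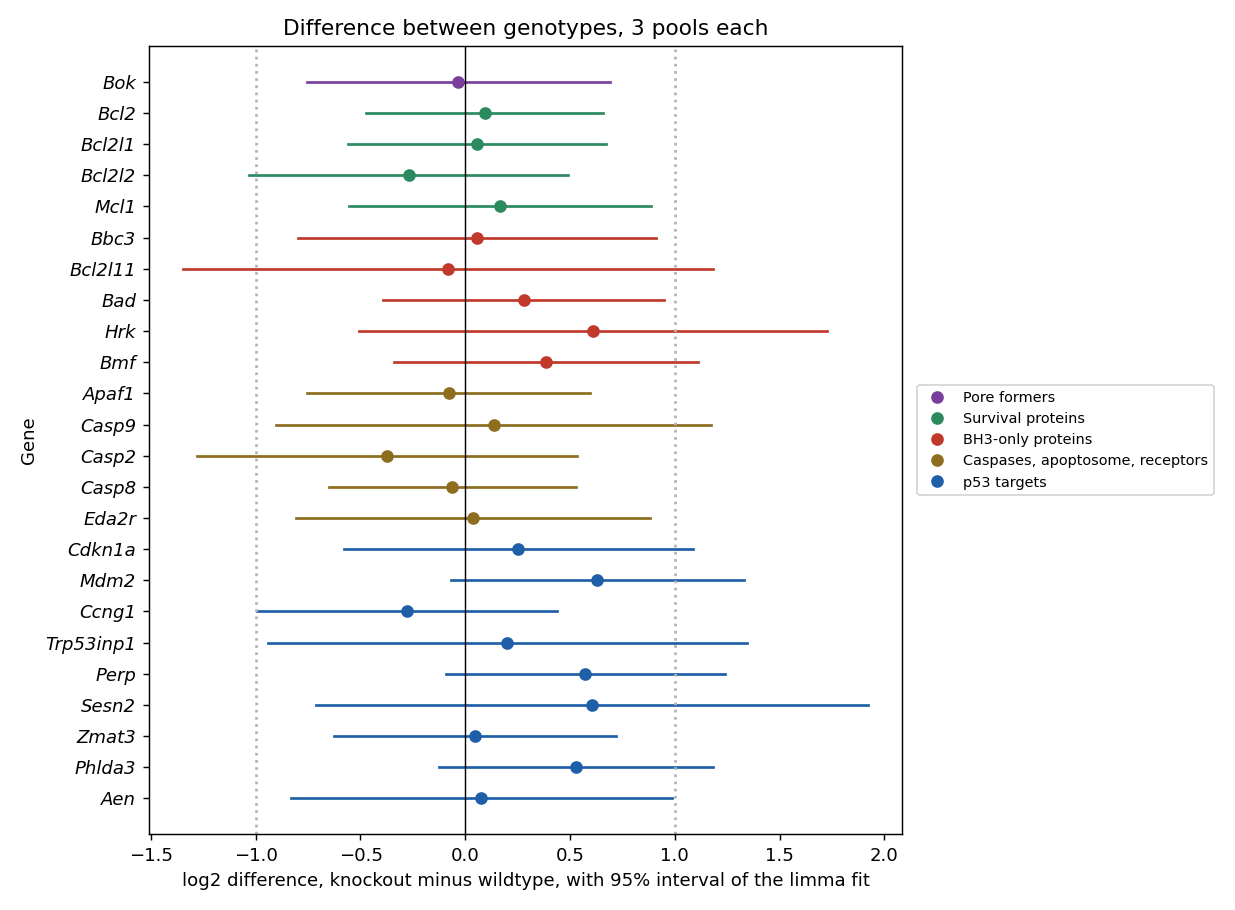
Log2 difference, knockout minus wildtype, of the 24 tested genes ordered by role (points) with the 95% interval of the limma fit (lines), from 3 pools per genotype. All 24 intervals include 0, and 12 stay within the dotted lines at −1 and 1.

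The pore formers could be followed only in part. Bok, a pore former of the Bcl2 family, had signals of 279, 247 and 284 in wildtype pools 1, 2 and 3, and 414, 239.5 and 179 in knockout pools 1, 2 and 3. Knockout pool 1 was the highest and knockout pool 3 the lowest of all 6, so the wildtype values lay inside the knockout range. The log2 difference was −0.033 (SE 0.32). Bak1 lay under the filter, with 62.7, 98.5 and 109 in wildtype pools 1, 2 and 3, and 86.1, 18.4 and 124 in knockout pools 1, 2 and 3. The groups overlapped, and the lowest value was that of knockout pool 2.

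Transcripts of the 4 survival proteins overlapped between the genotypes, and none passed the threshold. Bcl2, the founding member, had 709, 682 and 602 in wildtype pools 1, 2 and 3, and 729.5, 798 and 613 in knockout pools 1, 2 and 3. The groups overlapped, and the log2 difference was 0.093 (SE 0.25, 95% interval −0.47 to 0.66). Bcl2l1, which encodes Bcl-x, had 800.1, 911 and 813 in wildtype pools 1, 2 and 3, and 1118, 816 and 730.3 in knockout pools 1, 2 and 3. Knockout pool 1 was the highest and knockout pool 3 the lowest, with the wildtype pools between them (difference 0.055, SE 0.27). Mcl1, a survival protein of short half-life, had 5525, 4607 and 3634 in wildtype pools 1, 2 and 3, and 6214, 4046 and 5207 in knockout pools 1, 2 and 3. Its groups overlapped, with a difference of 0.17 (SE 0.32). Bcl2l2, which encodes Bcl-w, had 1045, 600.4 and 446 in wildtype pools 1, 2 and 3, and 527, 641 and 459 in knockout pools 1, 2 and 3. Only wildtype pool 1 stood above the other 5, and the difference of −0.27 (SE 0.34) was 0.050 without that pool and −0.53 without wildtype pool 3. The signs of Bcl2, Bcl2l1 and Mcl1 are not settled: Bcl2 and Bcl2l1 turned negative with a common median (−0.047 and −0.085), and all 3 did when the probe sets of a gene were averaged (−0.020, −0.13 and −0.00053).

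Of the 8 BH3-only genes, 5 were tested, none passed the threshold, and all overlapped between the genotypes. Bbc3, which encodes the p53 target Puma, had 189, 172 and 71.1 in wildtype pools 1, 2 and 3, and 162, 124 and 142 in knockout pools 1, 2 and 3. The 3 knockout pools lay within the wildtype range, and the log2 difference was 0.055 (SE 0.38). Bcl2l11, which encodes Bim, a killer of neurons deprived of trophic factors, had 2765, 3360.4 and 1217 in wildtype pools 1, 2 and 3, and 1028, 4372 and 2101 in knockout pools 1, 2 and 3. Its lowest and its highest values were both from knockout, pools 1 and 2, and the difference was −0.083 (SE 0.56), with −1.39, 0.38 and 0.77 within numbers 1, 2 and 3. Leaving out knockout pool 2 gave −0.60 and leaving out knockout pool 1 gave 0.43, so single pools set the sign.

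Bmf, a BH3-only protein tied to the cytoskeleton, had 919.6, 627 and 425 in wildtype pools 1, 2 and 3, and 938, 706 and 871 in knockout pools 1, 2 and 3. Wildtype pool 3 was lowest and wildtype pool 1 second highest, and the log2 difference of 0.39 (SE 0.32, limma unadjusted p = 0.26) was 0.13 without wildtype pool 3 and 0.65 without wildtype pool 1. Hrk, a BH3-only protein of neurons, had 61.4, 61.7 and 198 in wildtype pools 1, 2 and 3, and 306, 96.3 and 143 in knockout pools 1, 2 and 3. Knockout pool 1 was the highest, yet wildtype pool 3 exceeded knockout pools 2 and 3. The difference was 0.61 (SE 0.49, limma unadjusted p = 0.248), with 0.23 without knockout pool 1 and 1.02 without wildtype pool 3. Hrk and the p53 target Sesn2 were the 2 of the 24 genes whose wildtype mean lay under the filter level, so they were tested only through their knockout signals. Bad, which growth factor signalling holds inactive through phosphorylation, had 291, 390.0 and 345 in wildtype pools 1, 2 and 3, and 611, 382 and 315 in knockout pools 1, 2 and 3. Knockout pool 1 alone stood above the others, and the difference of 0.28 (SE 0.30) was 0.027 without it and 0.47 without knockout pool 3. Other probe sets, under the filter, had −0.57 for Hrk, −0.69 for Bad, and 0.18 and 0.32 for Bmf.

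The dim BH3-only genes gave no order between genotypes. Pmaip1, which encodes the p53 target Noxa, had 138, 93.4 and 111 in wildtype pools 1, 2 and 3, and 59.4, 62.1 and 163 in knockout pools 1, 2 and 3. Knockout pools 1 and 2 were lowest and knockout pool 3 was highest. Bid, which caspase 8 cuts to link the death receptor route to mitochondria, ranged from 28.1 in knockout pool 2 to 103 in knockout pool 1, with wildtype from 41.0 to 72.8. Bik, a BH3-only protein of the endoplasmic reticulum, ranged from 19.9 in knockout pool 3 to 102 in wildtype pool 1.

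Apoptosome and caspase transcripts also overlapped between the genotypes. Apaf1, the apoptosome scaffold, had 751, 499.8 and 524 in wildtype pools 1, 2 and 3, and 673, 622 and 392.4 in knockout pools 1, 2 and 3. The groups overlapped (log2 difference −0.080, SE 0.30, 95% interval −0.76 to 0.60). Casp9, the caspase that Apaf1 activates, had 1132, 1765 and 1614 in wildtype pools 1, 2 and 3, and 773, 2003 and 2758 in knockout pools 1, 2 and 3. Knockout pools 2 and 3 were above all wildtype pools and knockout pool 1 below all of them. Its difference was 0.14 (SE 0.46), with −0.53, 0.18 and 0.76 within numbers 1, 2 and 3, and 0.66 without knockout pool 1 and −0.24 without knockout pool 3. Casp2, an initiator caspase activated by the PIDDosome, had 1727, 2180.4 and 1439 in wildtype pools 1, 2 and 3, and 728, 1831 and 1816 in knockout pools 1, 2 and 3. Knockout pool 1 was again far below the rest, and the difference of −0.37 (SE 0.40) became 0.053 without it and −0.59 without knockout pool 2. Casp8, the initiator of the death receptor route, had 376, 364 and 297 in wildtype pools 1, 2 and 3, and 401, 331 and 265 in knockout pools 1, 2 and 3. Its difference was −0.062 (SE 0.26), with an interval of −0.65 to 0.53.

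Death receptors of the tumour necrosis factor receptor family were dim or without order. Fas, under the filter, had 132, 35.3 and 26.1 in wildtype pools 1, 2 and 3, and 146, 19.1 and 174 in knockout pools 1, 2 and 3. Both groups held low and high pools. Tnfrsf10b, the receptor for Trail, also lay under the filter, with 50.5, 119 and 154 in wildtype pools 1, 2 and 3, and 30.3, 37.0 and 13.3 in knockout pools 1, 2 and 3. All 3 knockout pools were below all wildtype pools, a pattern shared by 4.33% of all tested genes, to which Tnfrsf10b does not belong. With no filter, 10.2% of all genes had groups without overlap, in either direction. The log2 difference of Tnfrsf10b was then −1.11 (limma unadjusted p = 0.0159, adjusted p = 0.998), while its second probe set, dimmer still, had 0.40. Eda2r, a receptor for ectodysplasin A2 and a p53 target, had 81.5, 197 and 155 in wildtype pools 1, 2 and 3, and 117, 126 and 192 in knockout pools 1, 2 and 3. The knockout values lay within the wildtype range, with a difference of 0.038 (SE 0.37).

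Among the 9 genes grouped as p53 targets, 8 had higher values in knockout, beside 53.2% of all tested genes, and 0 passed the threshold. Sesn2, 1 of the 8, was tested only through its knockout signals. Of 21 other tested p53 regulators and targets outside the set, 10 were higher and 11 lower, with a median difference of −0.044. Among p53 targets grouped elsewhere in the set, Bbc3 had 0.055, Eda2r 0.038 and Apaf1 −0.080. The untested Fas, Pmaip1 and Tnfrsf10b had 0.49, −0.27 and −1.11, and a dimmer Tnfrsf10b probe set had 0.40. The count of higher genes in the group of 9 was 7 with quantile normalization and 6 with a common median. It ran from 6 without knockout pool 1 to 8 without wildtype pool 1 when 1 pool was left out. Without both pools numbered 1 it was 5. Relative to the median of all tested genes, their median difference was 0.23 as deposited and 0.27 with quantile normalization. With a common median it stayed at 0.23 by construction, since all genes shift alike. When 1 pool was left out it ran from 0.11 without knockout pool 3 to 0.39 without wildtype pool 3. Without both pools numbered 1 it was 0.11. Before that subtraction the median difference of the 9 genes was 0.18, 0.31 and 0.42 within pool numbers 1, 2 and 3. The median of all genes was there 0.11, 0.0040 and −0.056. Of these 9 genes, 8 overlapped between the genotypes. The summed markers of macrophages, of pericytes and of fibroblasts were higher in every knockout pool than in every wildtype pool. Of the fibroblast markers, 5 of 10 were higher within all 3 pool numbers, and their median difference within number 1 was −0.029. The part of those cell types in the values of the 9 genes was not tested. The 3 genes with the smallest p of the whole set, Mdm2, Perp and Phlda3, were in this class.

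Mdm2, the ubiquitin ligase that p53 induces and that limits p53, had signals of 1045, 1215 and 771 in wildtype pools 1, 2 and 3, and 1191, 1774 and 1792 in knockout pools 1, 2 and 3. Knockout pools 2 and 3 stood above every wildtype pool, and knockout pool 1 lay between wildtype pools 1 and 2, so the groups overlapped. The means were 1010.2 ± 224 in wildtype and 1586 ± 342 in knockout (SD, n = 3). The log2 difference was 0.63 (SE 0.31, 95% interval −0.067 to 1.33, limma unadjusted p = 0.0713), with 0.18, 0.53 and 1.18 within numbers 1, 2 and 3. With the pool number as a block its unadjusted p was 0.0471 and its adjusted p 0.768, where 6.24% of all genes had an unadjusted p under 0.05. The other Mdm2 probe set above the filter showed no such order: it had 151, 219 and 152 in wildtype pools 1, 2 and 3, and 16.4, 697 and 184 in knockout pools 1, 2 and 3, a difference of −0.016. The mean of both probe sets gave a difference of 0.31.

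Perp, a membrane protein of desmosomes that p53 induces, had 675, 546 and 760.0 in wildtype pools 1, 2 and 3, and 744, 1274 and 1028 in knockout pools 1, 2 and 3. Knockout pools 2 and 3 were above all wildtype pools, and knockout pool 1 was just below wildtype pool 3. The means were 660.4 ± 108 in wildtype and 1015 ± 265 in knockout (SD, n = 3), and the log2 difference was 0.57 (SE 0.29, 95% interval −0.093 to 1.24, limma unadjusted p = 0.0835). Without knockout pool 1 the unadjusted p was 0.0189 for Perp and 0.0176 for Mdm2, both with an adjusted p of 0.523, where 9.07% of all genes had an unadjusted p under 0.05. Leaving out 1 pool at a time gave differences from 0.40 to 0.77 for Perp and from 0.46 to 0.82 for Mdm2.

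Phlda3, which blocks Akt at the membrane, had 315, 265 and 315 in wildtype pools 1, 2 and 3, and 651, 366 and 370.0 in knockout pools 1, 2 and 3. All 3 knockout pools exceeded all wildtype pools, as for 5.77% of all tested genes, with knockout pool 1 far above the other two. The means were 299 ± 29.0 in wildtype and 462 ± 163 in knockout (SD, n = 3). The log2 difference was 0.53 (SE 0.29, 95% interval −0.13 to 1.18, limma unadjusted p = 0.102) and 0.27 without knockout pool 1. The groups overlapped once the arrays were moved to a common median.

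Cdkn1a, which encodes the cell cycle inhibitor p21 and is a classical readout of p53, had 430.1, 399 and 346 in wildtype pools 1, 2 and 3, and 762, 255 and 531 in knockout pools 1, 2 and 3. Knockout held both the 2 highest values and the lowest. The log2 difference was 0.25 (SE 0.37, limma unadjusted p = 0.509), with 0.77, −0.58 and 0.57 within numbers 1, 2 and 3, −0.070 without knockout pool 1 and 0.65 without knockout pool 2. Sesn2, a stress protein that restrains growth signalling, had 21.7, 189 and 154 in wildtype pools 1, 2 and 3, and 345, 109 and 126 in knockout pools 1, 2 and 3. Wildtype pool 1 was very low and knockout pool 1 high, and the difference was 0.61 (SE 0.58). Leaving out 1 pool at a time gave from 0.0076 without wildtype pool 1 to 0.97 without wildtype pool 2, with no change of sign, and leaving out both pools numbered 1, a choice made after seeing the data, gave −0.42.

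Ccng1, which encodes cyclin G1, was the 1 gene of these 9 with a lower value. Its signals were 5534, 5031 and 6693 in wildtype pools 1, 2 and 3, and 5892, 3572 and 4951 in knockout pools 1, 2 and 3. Knockout pools 2 and 3 were the lowest of the 6, but knockout pool 1 exceeded wildtype pools 1 and 2, and the log2 difference was −0.28 (SE 0.32). A second Ccng1 probe set had 752, 642 and 759.5 in wildtype pools 1, 2 and 3, and 233, 373 and 460.0 in knockout pools 1, 2 and 3. There the groups did not overlap, and the difference was −0.98. The third had −0.31, and the mean of all 3 gave −0.52 (limma unadjusted p = 0.0497, adjusted p = 0.996).

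Trp53inp1, which encodes a nuclear and autophagy protein, had 2853, 3322 and 4722 in wildtype pools 1, 2 and 3, and 1959, 4127 and 8403 in knockout pools 1, 2 and 3. Knockout pool 1 was the lowest and knockout pool 3 the highest, and the log2 difference was 0.20 (SE 0.50), turning to −0.32 without knockout pool 3 and rising to 0.72 without knockout pool 1. Aen, an apoptosis-enhancing nuclease, ranged from 192 to 440 in wildtype and from 218 to 572 in knockout (difference 0.076). Zmat3, an RNA-binding zinc finger protein, ranged from 217 to 413 and from 273 to 380 (difference 0.045). Neither gene had an order between genotypes.

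**Figure D2:**
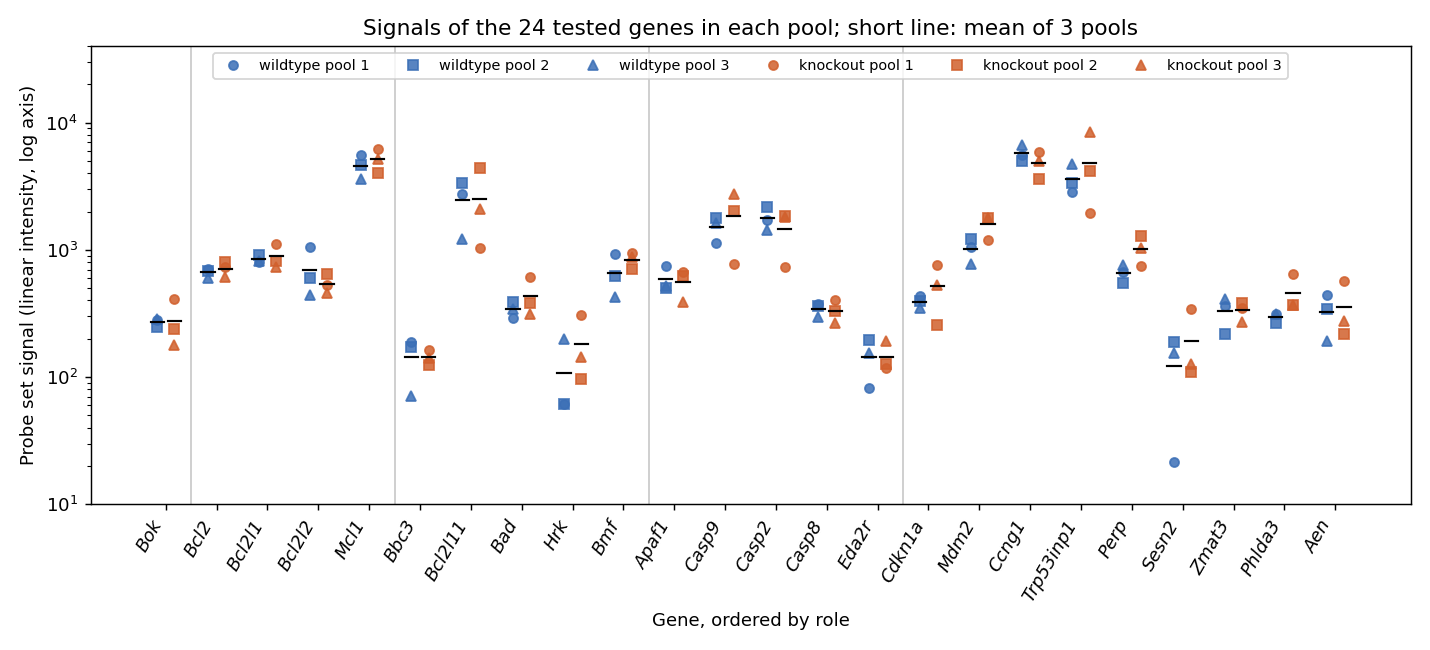
Signal of each of the 24 tested genes (log axis) in the 3 wildtype and 3 knockout pools, with pool number shown by the marker and the mean of 3 pools by a short line. Phlda3 is the gene whose knockout pools (366 to 651) all lie above the wildtype pools (265 to 315).

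The same-numbered pools allowed a comparison within dates. Within number 1, 16 of the 24 genes were higher in knockout, within number 2 it was 12, and within number 3 it was 15. Their median difference was 0.11, 0.030 and 0.23 within numbers 1, 2 and 3, and that of all tested genes 0.11, 0.0040 and −0.056. Bcl2, Bmf, Mdm2, Perp and Phlda3 were higher in all 3 numbers, 5 of 24, where 14.9% of all tested genes were. None of the 24 was lower in all 3, where 15.4% of all genes were. The remaining 19 had mixed signs.

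Knockout pool 1 often held the extreme value, among these genes as on the whole array. It had the highest value of the 6 pools for 11 of the 24 genes (45.8%) and for 32.6% of all tested genes, and the lowest for 4 (16.7%) and for 19.0% of all. The median of the 24 genes was 0.21 above the mean of the 6 pools there, and that of all tested genes 0.17. Its low genes were Bcl2l11, Casp9, Casp2 and Trp53inp1, and its high genes included Hrk, Sesn2, Phlda3 and Cdkn1a. This is the pool with high ribosomal protein transcripts and the highest summed macrophage, choroid plexus and dissection stress signals of the 6 pools. Their part in these values was not tested. Wildtype pool 3 had the lowest value for 7 genes (29.2%), among them Mdm2, Bbc3 and Bmf, and for 15.6% of all tested genes.

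**Figure D3:**
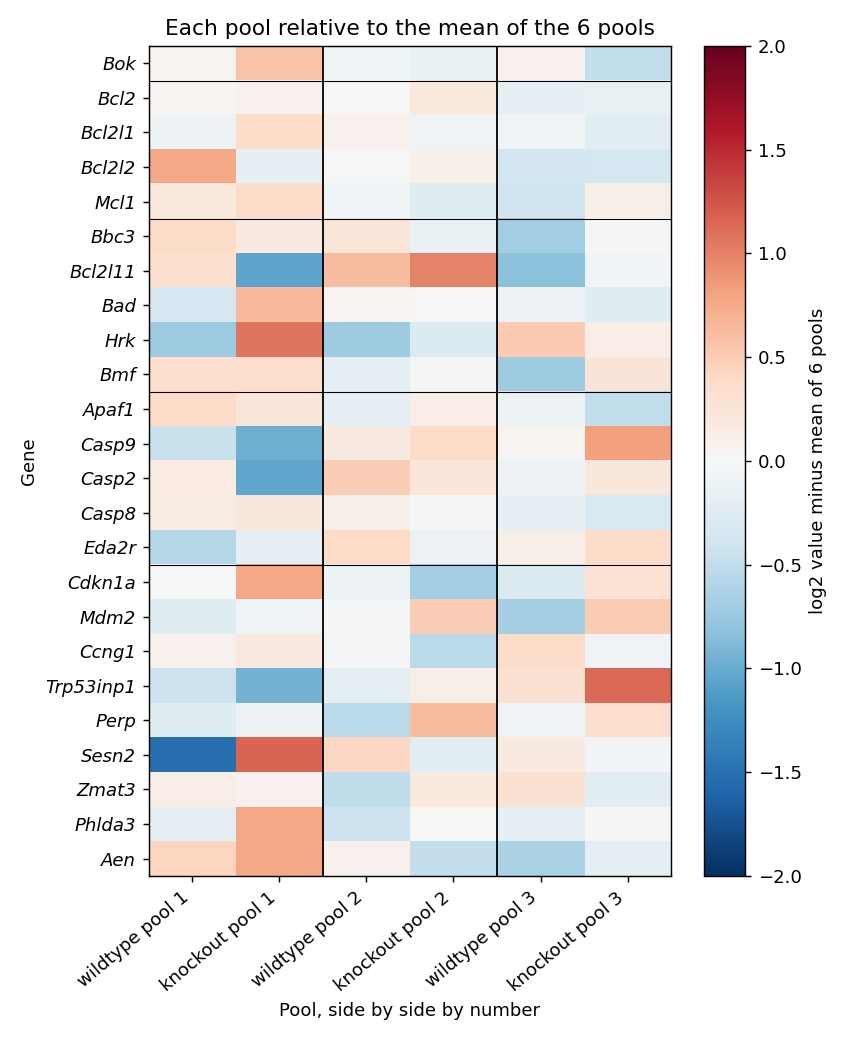
Log2 value of each tested gene in each pool minus its mean over the 6 pools (colour), with wildtype and knockout pools of the same number side by side. Knockout pool 1 has the highest value for 11 and the lowest for 4 of the 24 genes, and no gene is lower in knockout within all 3 numbers.

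For 10 of the tested genes several probe sets passed the filter, and they did not always point the same way. In 5 of these genes at least 1 other probe set had the opposite sign of the one of highest mean, which was true of 6 of 20 other probe sets. For Bcl2 the others ran from −0.69 to 0.21, and for Mcl1 from −0.39 to 0.22. For Ccng1, Cdkn1a, Sesn2, Trp53inp1 and Bcl2l2 all probe sets above the filter had 1 sign. The probe sets read for Mcl1, Bid and Bik end in x_at and those for Bmf and Tnfrsf10b in s_at, which in Affymetrix naming marks probes that may also bind other transcripts.

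**Figure D4:**
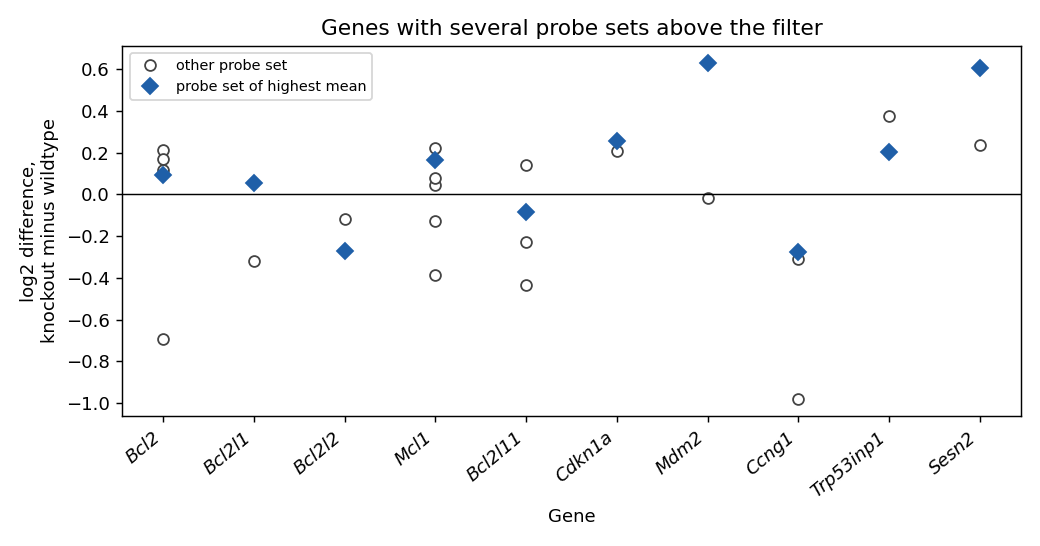
Log2 difference, knockout minus wildtype, for the 10 genes with more than 1 probe set above the filter. The filled symbol is the probe set of highest mean and open symbols are the others, and for Mdm2 the difference of 0.63 is not shared by its other probe set (−0.016).

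No further gene of the pathway passed the threshold, and 0 had an unadjusted p under 0.05 in limma without the block. Trp53, which encodes p53 itself, was not analysed here. Of 31 other p53 regulators and targets, 21 were tested, 10 higher and 11 lower in knockout with a median of −0.044. The smallest p was that of Rprm, a p53-induced arrest gene, with 456, 322 and 117 in wildtype pools 1, 2 and 3, and 331, 183 and 20.2 in knockout pools 1, 2 and 3 (log2 difference −0.84, SE 0.68). Knockout was lower within each number, but the pools of number 3 were low in both genotypes and the groups overlapped. Tigar, Rrm2b and Plk2, the next by p, had differences of −0.39, −0.38 and 0.35. Of 37 other genes of the death machinery, 27 were tested, 10 higher and 17 lower with a median of −0.044. Dffb, the nuclease that cuts DNA in dying cells, had 133, 114 and 107 in wildtype pools 1, 2 and 3, and 158, 195 and 208 in knockout pools 1, 2 and 3. All knockout pools were above all wildtype pools, as for 5.77% of all tested genes (difference 0.53, SE 0.30, limma unadjusted p = 0.115). Its inhibitor Dffa had −0.36, the DNA repair enzyme gene Parp1 −0.39, and the inhibitor of apoptosis Birc6 0.70. With the pool number as a block, Rprm and Birc6 had unadjusted p-values of 0.0359 and 0.0418 and adjusted ones of 0.768.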

How the data were processed

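The deposited table holds probe set signals of 6 Affymetrix arrays, a linear intensity. GCOS is named in the submitters' processing notes, and no source used here gives the signal algorithm. Each deposited intensity column had a 2% trimmed mean between 499.5 and 499.96, so arrays had been scaled before deposit. Detection calls and scanner files were not analysed here.

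All values' 20th percentile, 38.6, was added as the offset. By the platform annotation 34945 of 45037 probe sets named 1 gene. Probe sets in the lowest 40% by mean log2 value (a signal under about 105) were not tested.

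Limma 3.58.1 (R 4.3.3) was run with lmFit and a trended eBayes, leaving 4 residual degrees of freedom, two-sided. It was also tested on simulated data with reduced noise and with changes larger than those of the members. That run does not show whether differences of the members' size could be found. An exact permutation test of 3 pools against 3 cannot give p under 0.1 and was not used. The number of arrays limits precision: the median SE was 0.34, or 0.28 with the pool number as a block.

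Same-numbered pools share a date in the labels, and the deviations of same-numbered pools from their genotype's mean had correlations of 0.32, 0.25 and 0.36 over genes, so they were treated as paired in an alternative with a replicate block. Other alternatives changed the offset, normalization, filter, probe sets, variance model and pools. Members and lists were chosen with earlier results of these data known. Values in every pool were given for members without overlap, the 10 of smallest p and 15 picked for their role, others by range or in full, and for up to 4 genes of smallest p from each further list.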

Additional observations from a re-analysis of the deposited data

How the results depend on the processing

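No death or p53 gene passed the threshold in any of the 18 alternatives, 15 planned and 3 chosen after seeing the data. The lowest adjusted p of a member was 0.523, for Mdm2 and Perp without knockout pool 1, against 0.996 or above under each other offset, scaling, filter, probe set rule or variance setting. With the replicate block 0 members passed, the block changed no call, and Mdm2 had an adjusted p of 0.768. Of the 24 members, 6 kept their sign in all alternatives (Hrk, Bmf, Mdm2, Ccng1, Perp and Phlda3) and 18 did not. No alternative took in their dimmer probe sets under the filter. These had −0.57 for Hrk, 0.18 and 0.32 for Bmf, and 0.23 for Mdm2. The number of members without overlap was 1 as reported, 2 with quantile normalization (Mdm2 and Phlda3), 2 with no filter (Phlda3 and Tnfrsf10b) and 3 with averaged probe sets (Bcl2l2, Ccng1 and Phlda3), where the share over all genes was 10.1%, 9.86%, 10.2% and 10.3%. With a common median it was 1, Ccng1 in place of Phlda3. It ran from 2 to 6 when 1 pool was left out (15.0% to 28.2% of all genes), and was 8, 4 and 5 without both pools numbered 1, 2 and 3, where fewer pools make overlap rarer. The share over all genes was then 36.5%, 23.4% and 35.2%. The median difference of the members was −0.056 with a common median, by construction of that shift, and ran from 0.040 to 0.19 when 1 pool was left out. It was 0.21 without both pools numbered 2.

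Neurod1 kept its direction in all 18 alternatives, with an adjusted p between 0.00561 and 0.813. Its log2 difference was −4.87 with an offset of 1 and −4.76 with quantile normalization, where it was not called (limma adjusted p = 0.0721 and 0.0504), so that 0 genes were called. When 1 pool was left out it ran from −5.04 to −4.13, and it was called only without knockout pool 2 or 3, so the count of genes ran from 0 to 1. Without both pools numbered 1, 2 and 3 it was −4.80, −4.98 and −4.23, with 0 genes called. The cause of these lost calls was not tested. Dim signals limit Bak1, Pmaip1, Bid, Bik, Fas and Tnfrsf10b, which have no test in the reported fit.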
